A study of Mus musculus with 6 samples.

Results

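The CCAAT/enhancer-binding proteins (C/EBPs) Cebpa, Cebpb, Cebpd and Cebpg were followed by RNA sequencing in primary mouse hepatic stellate cells given forskolin or its solvent. These 4 genes were chosen by name, from 24940 genes in the deposited table, and all 4 were among the 12233 genes that passed the filter on low counts. The cells came from wild-type female mice of the strain C57BL/6JBomTac (written C57BL6/JBomTac in another label), and the age of the mice is not given in the sources used here. At 2 days after isolation, forskolin at 5 µM or an equal volume of DMSO was added to the medium already on the cells. Both groups were harvested after 3 h and held 3 libraries each, replicates A, B and C. Forskolin activates adenylyl cyclase directly and so raises cAMP, and hepatic stellate cells are liver pericytes that store vitamin A. Whether the replicates came from separate isolations is not stated, so p-values here reflect the spread among these libraries alone, which may be technical.

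C/EBPs are transcription factors of the basic leucine zipper (bZIP) class. A basic region contacts DNA and the zipper joins the protein to another C/EBP or to a bZIP protein of another class. C/EBPα is known for differentiation and growth arrest in liver, fat and myeloid cells. C/EBPβ and C/EBPδ are early-response members, induced by cAMP, cytokines and glucocorticoids in several cell types and acting before C/EBPα in fat cell differentiation. C/EBPγ lacks an activation domain and joins the other members, as well as ATF4, as a dimer partner. Genes of the cAMP response often carry the cAMP response element (CRE), TGACGTCA, or its shorter core, TGACG, which are bound by CREB-family proteins.

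All 4 members are compact genes. In the deposited mm10 coordinates, Cebpa (NM_001287523) lies at chr7:35119293-35121928 on the plus strand, and Cebpb (NM_009883) at chr2:167688915-167690432 on the plus strand. Cebpd (NM_007679) lies at chr16:15887286-15889545 on the plus strand, and Cebpg (NM_009884) at chr7:35046422-35056566 on the minus strand. GENCODE release M21 gives Cebpa, Cebpb and Cebpd 1 exon each, with no intron, and coding sequences for 359, 296 and 268 residues. It gives Cebpg 2 exons and the shortest protein of the set, with 150 residues. Cebpg and Cebpa are neighbours on chromosome 7, separated by 62.7 kb. None of the 4 genes had a second copy listed in the genome.

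The promoters of Cebpa, Cebpb and Cebpg are shown because cAMP-responsive elements can lie in such windows. The RefSeq promoter table (GRCm38.p6) held 3 of the 4 members, without Cebpd. Each sequence is the 250 bases before the annotated start, 5′ to 3′ on the gene's own strand, and capitals mark a match to the TGACG core, the TATAAA box or the CCAAT box on either strand. The windows are chr7:35119043-35119292 on the plus strand for Cebpa, chr2:167688665-167688914 on the plus strand for Cebpb and chr7:35056567-35056816 on the minus strand for Cebpg.
Cebpa: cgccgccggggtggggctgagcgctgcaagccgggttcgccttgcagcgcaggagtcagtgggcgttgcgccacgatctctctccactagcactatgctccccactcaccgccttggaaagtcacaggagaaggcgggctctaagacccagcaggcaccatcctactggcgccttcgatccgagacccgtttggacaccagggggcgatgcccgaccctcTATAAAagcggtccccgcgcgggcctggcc
Cebpb: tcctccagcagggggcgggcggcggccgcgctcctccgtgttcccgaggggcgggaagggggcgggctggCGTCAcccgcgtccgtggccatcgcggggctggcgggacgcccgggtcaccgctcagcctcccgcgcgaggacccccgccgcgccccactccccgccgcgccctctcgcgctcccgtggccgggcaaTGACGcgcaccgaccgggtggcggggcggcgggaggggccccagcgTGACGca
Cebpg: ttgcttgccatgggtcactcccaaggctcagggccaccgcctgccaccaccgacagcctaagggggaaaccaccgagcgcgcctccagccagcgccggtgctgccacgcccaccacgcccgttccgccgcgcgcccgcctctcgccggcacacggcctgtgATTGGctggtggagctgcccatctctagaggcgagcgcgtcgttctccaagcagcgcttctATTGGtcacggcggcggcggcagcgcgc

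Cebpb was the only one of these 3 promoters with a CRE core. It held 3 TGACG matches, 1 on the minus strand at bases 180 to 176 before the start and 2 on the plus strand at bases 53 to 49 and 7 to 3. Among 32851 promoters of the same length, 17.8% held at least 1 TGACG match, 3.9% at least 2 and 0.688% at least 3. The full element TGACGTCA, which contains the core, stood in none of the 3 windows and in 1.55% of all promoters. Cebpa held 1 TATAAA match, at bases 30 to 25 before the start, as did 12.4% of all promoters. In Cebpb a TATAAA match lay at bases 22 to 27 after the annotated start. Cebpg held 2 CCAAT matches, both on the minus strand, at bases 89 to 85 and 28 to 24, and 33.8% of all promoters held at least 1. The C/EBP binding core TTGCNNAA, searched on both strands like the others, matched none of the 3 windows and 9.56% of all promoters. The windows were rich in G and C, at 66.4% for Cebpa, 81.6% for Cebpb and 70.8% for Cebpg, against a median of 52.4%. A match describes letters only, and no binding was measured here. The part of these matches in the forskolin response was not tested.

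Column totals ran from 2770628 to 10607997 expected counts, and both C libraries were the shallowest of their group. Levels are given as CPM, counts scaled to each library's depth after TMM adjustment. Across tested genes, log2 CPM of A and B correlated at 0.976 in the DMSO group and 0.983 in the forskolin group, against 0.937 to 0.942 for pairs with a C library. With all 6 libraries, 342 genes were called at an adjusted p under 0.05 (2.8% of those tested), 272 higher with forskolin (2.22%) and 70 lower (0.572%). Leaving out both C libraries raised the count to 1229, which included all 342, while leaving out DMSO A, DMSO B, forskolin A or forskolin B lowered it to 203, 185, 189 or 207. All 12 stellate cell markers were tested, and their summed level was 1740 to 1840 CPM in the DMSO libraries and 1870 to 2030 CPM in the forskolin libraries. Of the 12, 2 were called higher with forskolin, Hgf (22.9 ± 5.79 and 76.3 ± 8.04 CPM) and Hand2 (46.9 ± 12.5 and 96.5 ± 10.3 CPM). Reln was abundant at 493 to 645 CPM and the retinol esterifying enzyme Lrat was low at 5.39 to 12.2 CPM.

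The early-response pair rose with forskolin. Cebpd rose 6.22-fold and Cebpb 2.56-fold, and both passed the test over all genes. Cebpa stood 1.62-fold higher without passing it, and Cebpg stood at 0.869 of its DMSO level, also without passing. Thus 2 of 4 members were called higher and 0 of 4 lower, beside the 2.22% and 0.572% given for all tested genes. In bulk samples, fewer cells of a type and less RNA per cell cannot be told apart.

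Cebpd was at 27.1, 37.3 and 26.4 CPM in DMSO A, B and C. With forskolin it was at 180.0, 175.7 and 220.4 CPM in A, B and C. The groups were far apart, and every forskolin library was above every DMSO library, as for 10.7% of tested genes. The means were 30.3 ± 6.07 and 192 ± 24.7 CPM (SD, n = 3 each), and the log2 fold change was 2.64 ± 0.17 (SE, edgeR adjusted p = 1.19e-05). By size this was the 90th rise of the tested genes and the 53rd of the 272 called risers, whose median was 1.33 on the log2 scale. The fewest reads behind a value were 78 expected counts, in DMSO C, and the most were 1890, in forskolin B. The 3′ end of Cebpd overlaps the last 321 bases of Spidr, a DNA repair gene read from the other strand, and since strand was not kept in these libraries, reads of the 2 genes cannot be told apart there. Spidr itself was at 14.8 ± 4.38 CPM with DMSO and 16.4 ± 7.51 CPM with forskolin (log2 fold change 0.19 ± 0.38, edgeR adjusted p = 0.928).

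Cebpb was at 77.0, 80.1 and 89.1 CPM in DMSO A, B and C. With forskolin it was at 201, 182 and 249.5 CPM. The groups did not overlap, and forskolin C was the highest library for Cebpb as it was for Cebpd. The means were 82.1 ± 6.29 and 211 ± 35.0 CPM (SD, n = 3 each), with a log2 fold change of 1.36 ± 0.14 (SE, edgeR adjusted p = 3.11e-04). This rise was close to the median of all called risers, at rank 133 of 272. Cebpb had the most reads per base of the 4 genes, and 263 to 1953.5 expected counts lay behind its values.

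Cebpa was at 43.8, 55.7 and 74.9 CPM in DMSO A, B and C, the widest spread of any member in that group relative to its mean. With forskolin it was at 91.1, 85.7 and 103 CPM. The groups again did not overlap, and the nearest values were 74.9 and 85.7 CPM. The means were 58.1 ± 15.7 and 93.1 ± 8.65 CPM (SD, n = 3 each), and the log2 fold change of 0.69 ± 0.19 had an unadjusted p of 0.00426 and an adjusted p of 0.106 (edgeR). Without DMSO C, the high control library, the log2 fold change was 0.89 with an adjusted p of 0.0223, and without both C libraries it was 0.81 with an adjusted p of 2.12e-04 (edgeR). The other tools also differed, with adjusted p = 0.0445 by DESeq2 and 0.0158 by limma-voom. The call of Cebpa thus depended on the libraries and the tool. Cebpa is known to be abundant in hepatocytes and myeloid cells, so markers of those cells are given beside it. Summed hepatocyte markers were at 7.29, 6.28 and 8.13 CPM in DMSO A, B and C and at 4.90, 11.9 and 19.8 CPM in forskolin A, B and C, with Hnf4a at 1 count in all libraries together. Other hepatocyte markers were present, with Alb at 1.56 to 7.77 CPM and Apoa1 at 1.46 to 3.13 CPM. Summed macrophage markers were at 18.4 to 22.4 CPM with DMSO and 13.9 to 18.3 CPM with forskolin. Of these, Marco was at 0 counts in every library, Cd68 at 8.16 to 13.7 CPM and Csf1r at 3.72 to 7.79 CPM. The part of both cell types in the Cebpa values was not tested.

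Cebpg was at 93.9, 97.2 and 98.3 CPM in DMSO A, B and C. With forskolin it was at 82.5, 87.5 and 80.8 CPM. Both groups were tight, and all 3 forskolin libraries were below the DMSO libraries, as for 9.46% of tested genes. The means were 96.5 ± 2.27 and 83.6 ± 3.49 CPM (SD, n = 3 each), and the log2 fold change was -0.20 ± 0.11 (SE, edgeR adjusted p = 0.561). No setting called Cebpg, and its log2 fold change ran from -0.24 to -0.18 over 19 alternatives.

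**Figure D1:**
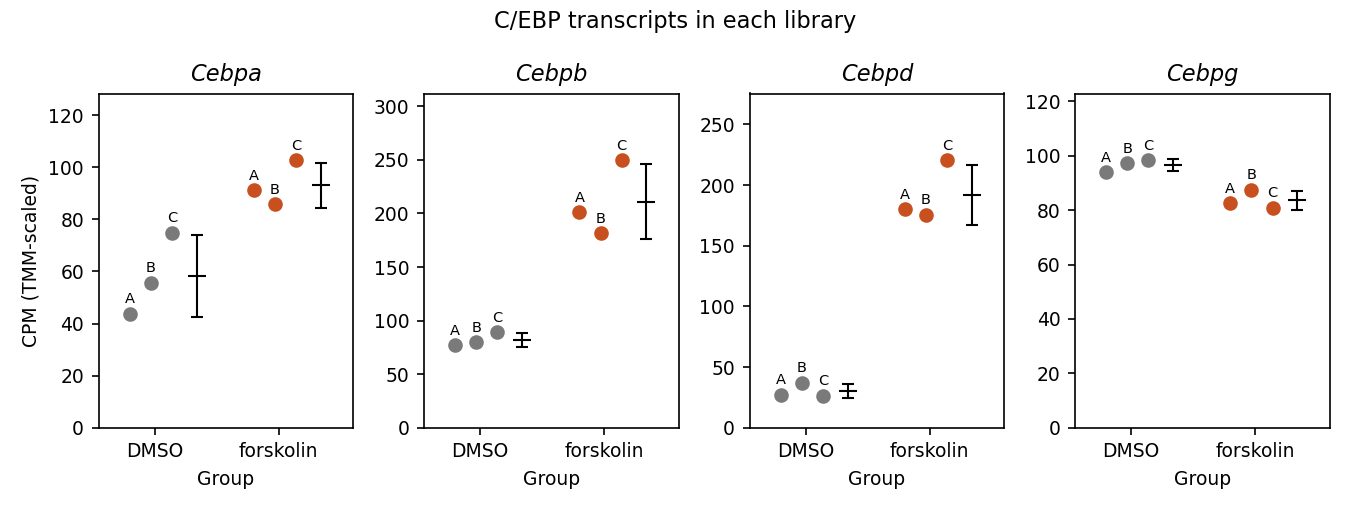
Level of each C/EBP transcript in each library, in TMM-scaled CPM on axes that start at 0; points are libraries A, B and C, and the bar beside each group is the mean with its SD. Cebpd moved from 26.4 to 37.3 CPM with DMSO to 175.7 to 220.4 CPM with forskolin, while Cebpg lay between 80.8 and 98.3 CPM in all 6 libraries.

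**Figure D2:**
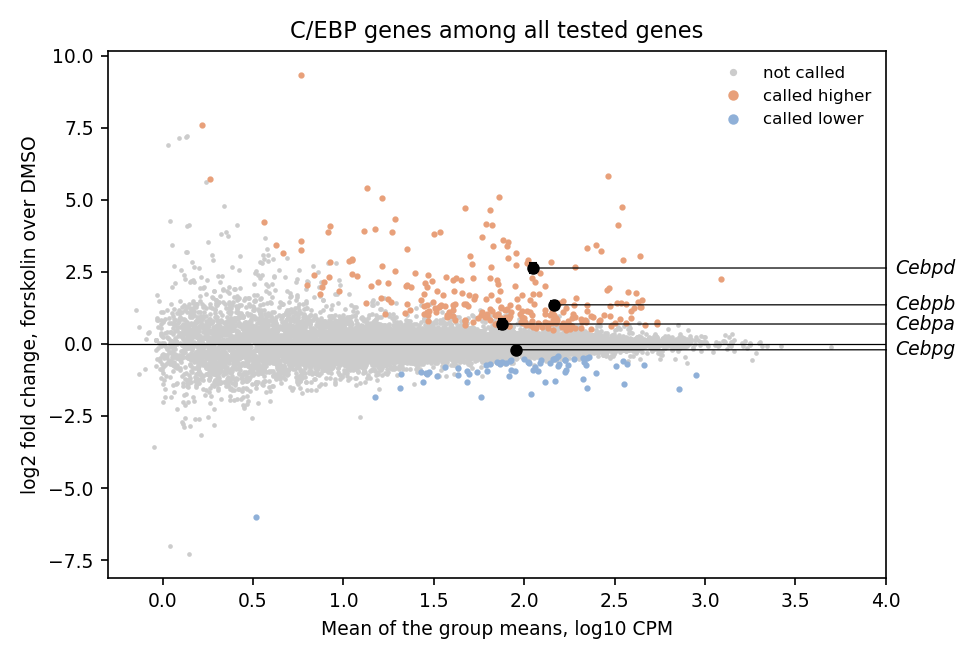
Log2 fold change of forskolin over DMSO against the mean level (log10 CPM) for the 12233 tested genes, with the 4 C/EBP genes in black and their SE as bars. Cebpd at 2.64 and Cebpb at 1.36 lie among the called risers, and Cebpa at 0.69 and Cebpg at -0.20 among the uncalled genes.

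The call of Cebpb and Cebpd did not depend on any setting tried. Over 19 alternatives, the log2 fold change of Cebpb ran from 1.23 to 1.46 with a highest adjusted p of 0.00478. That of Cebpd ran from 2.44 to 2.83 (highest adjusted p 2.99e-04). Without both C libraries the values were 1.28 for Cebpb and 2.44 for Cebpd. Cebpa passed the threshold in 9 of the 19 alternatives and kept its direction in all of them, between 0.53 and 0.89.

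**Figure D3:**
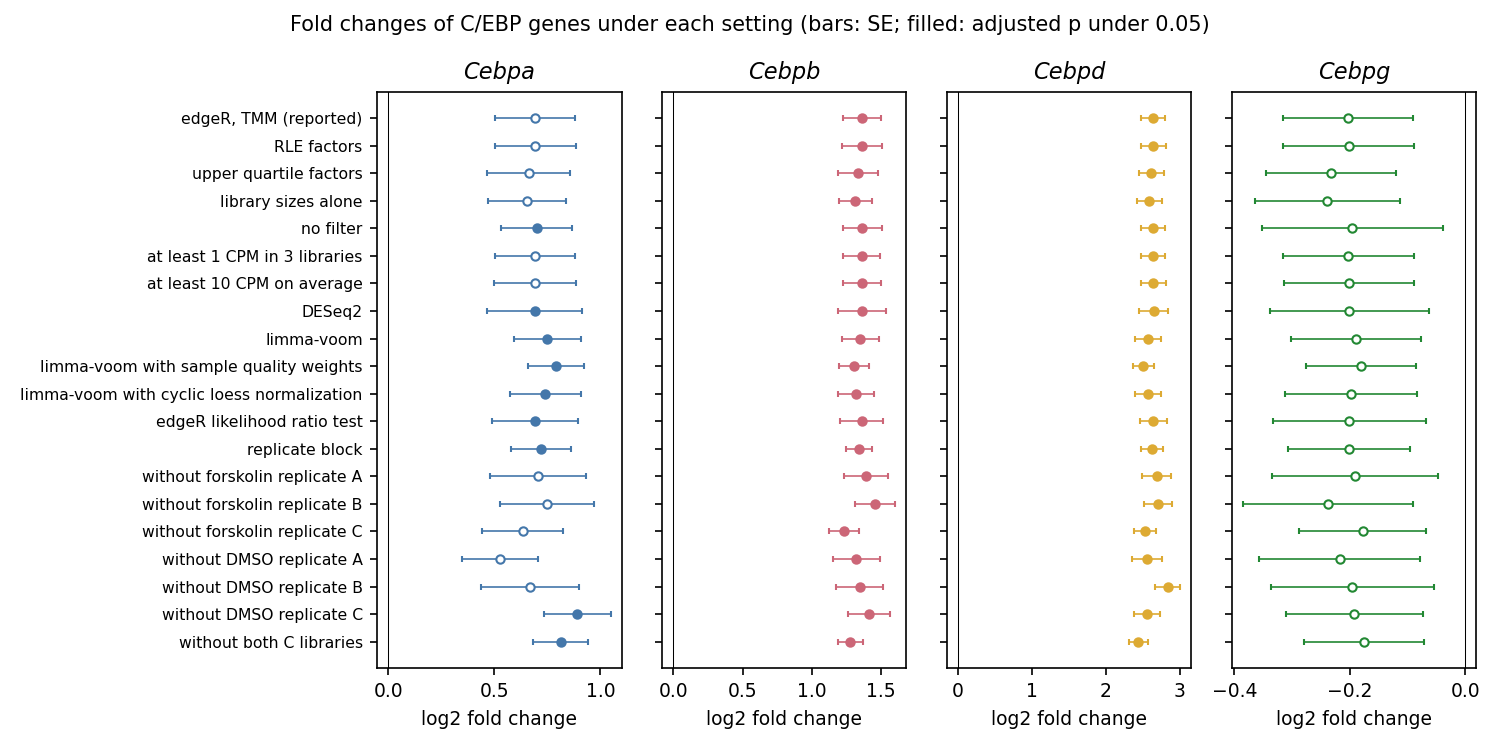
Log2 fold change of each C/EBP gene under the reported setting (top) and the 19 alternatives, with SE as bars, filled where the adjusted p is under 0.05; the horizontal scale differs between panels. Cebpb and Cebpd are filled in every row, Cebpg in none and Cebpa in 9 of the 19 alternatives.

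The members' responses were compared with each other through the log2 ratio of their counts within each library, which does not depend on library size. The 6 pairs share 4 genes and are not independent. Cebpd over Cebpg moved the most, from -1.69 ± 0.27 with DMSO to 1.19 ± 0.23 with forskolin, a difference of 2.88. Cebpb over Cebpg moved from -0.24 ± 0.08 to 1.32 ± 0.29, a difference of 1.56. Within the early-response pair, Cebpb over Cebpd went from 1.45 ± 0.33 to 0.13 ± 0.07, a difference of -1.32. Cebpa over Cebpd moved by -1.96 and Cebpa over Cebpb by -0.64, both toward the early-response member. Cebpa over Cebpg moved by 0.92. Each of the 6 exact permutation tests (two-sided, n = 3 each) gave p = 0.1, adjusted 0.1, which is the smallest p that 3 against 3 libraries allow, so none could pass 0.05. Without both C libraries the 6 differences kept their signs, and that of Cebpa over Cebpb was -0.44.

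Levels of different genes were set side by side only per length, as CPM per kb of the deposited transcript. With DMSO, Cebpb led at 54.2 ± 4.15 CPM per kb. Cebpa at 22.1 ± 5.97 and Cebpg at 20.5 ± 0.483 CPM per kb overlapped and do not differ beyond their spread. Cebpd was lowest at 13.4 ± 2.69 CPM per kb, although its highest library, at 16.5, nearly met the lowest of Cebpa, at 16.6. With forskolin the order was Cebpb at 139 ± 23.1, Cebpd at 85.1 ± 10.9, Cebpa at 35.4 ± 3.28 and Cebpg at 17.8 ± 0.743 CPM per kb. No neighbours in that order overlapped, so Cebpd had moved from last to next after Cebpb. Among all 12233 tested genes ranked by level per length, Cebpd went from rank 5805 to 1005 and Cebpb from 1707 to 513. Cebpa went from 4244 to 2889 and Cebpg from 4476 to 4993. The deposited length of Cebpd is 2257 bases, while the GENCODE transcript has 3746 exon bases. For Cebpg the deposited length is 4698 bases, while GENCODE also gives a transcript of 914 exon bases. Reads were not counted over these other models. Other models could change the levels per length, the order of the members and the shares of the sum. All of these hold for the deposited models and lengths only.

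The summed level of the 4 transcripts rose 2.52-fold. It was 99.5, 111 and 119.9 CPM per kb in DMSO A, B and C and 265, 249 and 319 CPM per kb in forskolin A, B and C. The share of Cebpb in that sum was 49.2% ± 1.79 with DMSO and 50.01% ± 1.78 with forskolin (SD, n = 3 each), a difference smaller than the spread. Cebpd went from 12.2% ± 2.54 to 30.7% ± 0.566 of the sum. Cebpg went from 18.7% ± 1.33 to 6.51% ± 1.05, and Cebpa from 19.8% ± 3.57 to 12.8% ± 0.484. Cebpa thus took a smaller share of the sum with forskolin although its own level was higher. These are RNA levels, and protein, including the separate forms that C/EBPα and C/EBPβ transcripts encode, was not measured.

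**Figure D4:**
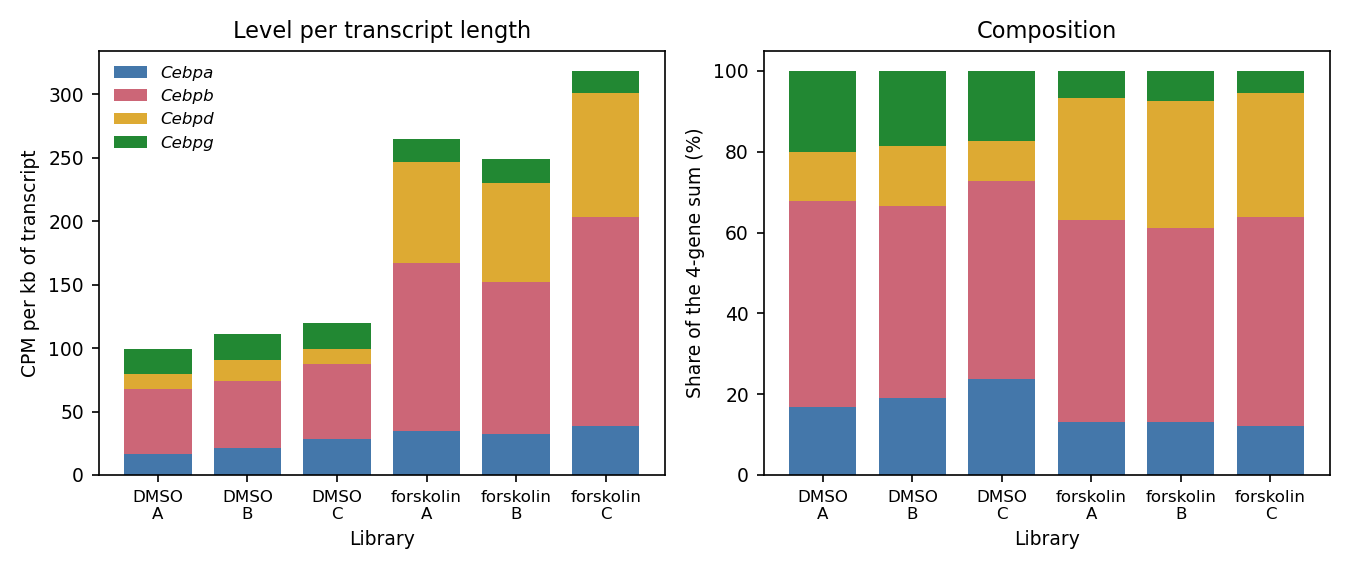
Stacked levels per transcript length (left, CPM per kb) and shares of the 4-gene sum (right, percent) in each library. The sum is 99.5 to 119.9 CPM per kb with DMSO and 249 to 319 with forskolin; Cebpd widens from 12.2% to 30.7% on average while Cebpb stays near 50.01%.

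Of the other genes nearest to the members, none that was tested was called by edgeR or in any alternative. Beside Cebpb, the noncoding A530013C23Rik starts 327 bases away and was near the detection floor, at 2.11 CPM with DMSO and 1.85 CPM with forskolin (log2 fold change -0.24 ± 0.79, edgeR adjusted p = 0.966). Tmem189, 27.4 kb from Cebpb on the other side, had a log2 fold change of 0.11 ± 0.12 (edgeR adjusted p = 0.840). Mzt2, 23.9 kb from Cebpd, was at 0.52 ± 0.24 (edgeR adjusted p = 0.442). Pepd, a peptidase gene 1.71 kb from Cebpg, was at 0.26 ± 0.22 (edgeR adjusted p = 0.760), and Slc7a10, 64.5 kb from Cebpa, was below the filter.

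For each member, the 3 genes with the most similar pattern over the 6 libraries were taken from 10152 tested genes with at least 4 CPM on average, by the root mean square (RMS) difference of log2 CPM centred on each gene's mean. Cebpd was nearest to Star, the mitochondrial cholesterol import protein (0.160), Nfil3, a bZIP repressor (0.165), and Kcne4, a potassium channel subunit (0.221). Star was at 51.8 ± 8.98 CPM with DMSO and 332 ± 38.4 CPM with forskolin, and Nfil3 at 37.0 ± 2.05 and 207 ± 18.0 CPM. Cebpb was nearest to Bambi, a decoy receptor of the TGF-beta family (0.0901), Dusp1, a MAP kinase phosphatase (0.0978), and Ugdh, which makes UDP-glucuronate (0.115). Bambi was at 43.4 ± 5.37 and 106 ± 10.98 CPM, and Dusp1 at 241 ± 34.8 and 573 ± 132 CPM. Cebpa was nearest to the microtubule-associated Map1a (0.0912), Camk2n2 (0.0938) and the imprinted gene Peg3 (0.107), and edgeR called none of the 3. Map1a and Peg3 passed with limma-voom (adjusted p = 0.00754 and 0.0341), and Map1a also with DESeq2 (0.0318). Cebpg was nearest to Stk35 (0.0173), Lrrc58 (0.0215) and Tsc22d2 (0.0227), which were not called by edgeR or in any alternative. The values in parentheses are RMS differences over 6 libraries and describe likeness only.

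Of the remaining relatives, Cebpe, the granulocyte C/EBP, had 0 counts in all 6 libraries, where 3 counts would equal 0.279 to 1.17 CPM. Ddit3, which encodes the stress-induced C/EBP homologous protein CHOP, was at 112, 102 and 139 CPM with DMSO and 155, 154 and 225 CPM with forskolin. These groups did not overlap, but the log2 fold change of 0.60 ± 0.17 did not pass (edgeR adjusted p = 0.132). It passed without both C libraries (0.53, edgeR adjusted p = 3.15e-04). Cebpz, a CCAAT-binding protein of another family, was at 227 ± 6.22 and 219 ± 51.8 CPM (log2 fold change -0.06 ± 0.15, edgeR adjusted p = 0.945). Without both C libraries it was called lower (-0.26, edgeR adjusted p = 0.0295). Thus edgeR called 0 of 2 tested relatives, beside 2.8% of all tested genes. DESeq2 and limma-voom also called 0, beside 553 and 482 of 12233 genes. The unadjusted p was 0.00602 for Ddit3 and 0.683 for Cebpz (edgeR). Ddit3 passed with no filter (adjusted p = 0.00106), the likelihood ratio test (0.0328), the replicate block (0.00307), and limma-voom with quality weights (0.00824) or cyclic loess (0.0436). The median log2 fold change of the 2 tested relatives was 0.27 beside 0.0050 for all tested genes.

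Among 9 listed bZIP dimer partners, which count Ddit3 again, 6 were tested. Of these 2 rose and 0 fell, beside 2.22% and 0.572% of all tested genes, and the median log2 fold change was 0.39 with Ddit3 included. Fos, an AP-1 subunit, was at 22.3, 13.2 and 18.3 CPM with DMSO and 82.7, 89.8 and 87.5 CPM with forskolin (log2 fold change 2.28 ± 0.20, edgeR adjusted p = 1.45e-04). Atf3, a stress-induced repressor, went from 79.9 ± 4.08 to 181 ± 28.0 CPM (log2 fold change 1.18 ± 0.13, edgeR adjusted p = 6.32e-04). Atf4, the partner of C/EBPγ in the amino acid response, was not called by edgeR, at 454 ± 126 and 514 ± 192 CPM, and Jun was at 293 ± 18.8 and 262 ± 39.3 CPM. Batf, Batf2 and Batf3 were below the filter with all 6 libraries. Without both C libraries 4 of 7 tested partners were called, 3 higher and 1 lower, beside 738 and 491 of 12597 genes.

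Genes known to act upstream of C/EBP transcription were represented by 16 genes, all tested, of which 3 rose and 1 fell, beside 2.22% and 0.572% of all tested genes. Their median log2 fold change was -0.02. Crem, a cAMP-responsive CREB-family gene, went from 13.1 ± 1.20 to 150.3 ± 19.5 CPM (log2 fold change 3.53 ± 0.16, edgeR adjusted p = 1.43e-06). Klf4, a factor that activates Cebpb in fat cell precursors, went from 94.4 ± 20.5 to 782 ± 120.4 CPM (3.04 ± 0.19, edgeR adjusted p = 1.14e-05). Nfkb1, an NF-kB subunit, rose by 0.54 ± 0.10 on the log2 scale (edgeR adjusted p = 0.0139). Nr3c1, the glucocorticoid receptor, was at 253, 272 and 255 CPM with DMSO and 177, 159 and 168 CPM with forskolin, and fell by 0.63 on the log2 scale (edgeR adjusted p = 0.00561). The 12 others, among them Creb1 at -0.51 ± 0.24, Stat3 at 0.13 ± 0.11 and the 3 Crtc coactivators, were not called by edgeR. Klf5, also among the 12, was at 21.5 ± 9.65 CPM with DMSO and 3.13 ± 2.73 CPM with forskolin. Its groups did not overlap, but the log2 fold change of -2.55 ± 0.64 did not pass (edgeR adjusted p = 0.0767). DESeq2 and the likelihood ratio test each called 5 of the 16, 3 higher and 2 lower, and limma-voom with sample quality weights called 6. Over all 12233 genes tested these settings called 553, 648 and 984. Without DMSO B or without forskolin B, 2 of the 16 were called, beside 185 of 12405 and 207 of 12468 genes. Nfkb1 (adjusted p = 0.0709 and 0.0973) and Nr3c1 (0.0505 and 0.0556) no longer passed there in edgeR. Nfkb1 also missed the threshold in edgeR without DMSO A or forskolin A (0.0972 and 0.0889).

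Of 15 names listed for enzymes and adaptors that modify C/EBP proteins, 14 were in the table and tested (Rfwd2 is an older symbol of Cop1). Of these 2 rose and 0 fell, beside 2.22% and 0.572% of all tested genes. Trib1, the pseudokinase that brings C/EBPα to the ubiquitin ligase COP1, was at 87.4, 84.4 and 84.0 CPM with DMSO and 212, 228 and 285 CPM with forskolin. The groups were well apart, with a log2 fold change of 1.49 ± 0.13 (edgeR adjusted p = 1.21e-04). Siah2, a ubiquitin ligase that acts on C/EBPδ, went from 38.4 ± 2.97 to 65.3 ± 4.32 CPM (0.76 ± 0.15, edgeR adjusted p = 0.0200). That call was lost when any of the A or B libraries was left out. The edgeR adjusted p was 0.101 and 0.146 when forskolin A or B was left out, and 0.0754 and 0.105 when DMSO A or B was. Trib2 and Trib3, the other 2 tribbles genes, were at 0.73 ± 0.27 and 0.79 ± 0.21 and did not pass (edgeR adjusted p = 0.292 and 0.0983). For both, every forskolin library was above every DMSO library, as for 10.7% of tested genes. The kinase genes Gsk3a and Gsk3b, whose products phosphorylate C/EBPα and C/EBPβ, had log2 fold changes of -0.19 ± 0.14 and -0.15 ± 0.11 and were not called by edgeR. The median of the 14 was 0.07.

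Target genes known from other tissues were read in 4 lists. Of 21 inflammatory and acute-phase targets, 7 were tested, 3 rose and 0 fell, beside 2.22% and 0.572% of all tested genes. Il6 and Cxcl2 were near 0 with DMSO and passed the filter on low counts through the forskolin libraries, so this count is a description only and no median is given. Tnfaip6, a hyaluronan-binding secreted protein, was at 5.54, 7.495 and 3.39 CPM with DMSO and 35.2, 35.7 and 28.0 CPM with forskolin (2.52 ± 0.30, edgeR adjusted p = 9.85e-04). Cxcl1, a neutrophil chemokine, went from 5.70 ± 1.93 to 22.7 ± 4.52 CPM (2.003 ± 0.345, edgeR adjusted p = 0.0101). Il6 was at 0.583, 1.22 and 0 CPM with DMSO and 7.81, 8.46 and 7.38 CPM with forskolin (3.44 ± 0.75, edgeR adjusted p = 0.0381), so its DMSO values lay near the floor of 3 counts and its fitted fold change is imprecise. The 4 other tested genes were not called by edgeR. Ptgs2, the most abundant of the 7, was at 172 ± 68.5 and 234 ± 25.0 CPM with overlapping groups (edgeR adjusted p = 0.581). C3 overlapped too (edgeR adjusted p = 0.925). Ccl2 and Cxcl2 were higher in every forskolin library without passing, Ccl2 with an edgeR adjusted p of 0.260. The remaining 14 genes were below the filter, and the liver acute-phase genes Saa2 and Lcn2 had 0 counts throughout. Without forskolin A only Tnfaip6 of the 7 was called, beside 189 of 12468 genes. The edgeR adjusted p was then 0.071 for Cxcl1 and 0.199 for Il6. Cxcl1 also missed the threshold without DMSO B (0.0501), as did Il6 without forskolin B (0.199), DMSO A (0.166) and DMSO B (0.0634).

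Of 17 amino acid response targets, 15 were tested, 1 rose and 0 fell, beside 2.22% and 0.572% of all tested genes, and the median log2 fold change was 0.30. The riser was Ddit4, an inhibitor of mTORC1, at 68.3, 70.7 and 117 CPM with DMSO and 209, 225 and 209.9 CPM with forskolin (1.36 ± 0.19, edgeR adjusted p = 0.00255). Slc7a11, the cystine transporter and the most abundant of the list by CPM, was at 1152 ± 179.8 and 1418 ± 231 CPM (0.30 ± 0.18, edgeR adjusted p = 0.603). DESeq2 and limma-voom each called 2 of the 15 and the likelihood ratio test 3. Over all 12233 genes tested these called 553, 482 and 648. Without both C libraries 7 were called, all higher, beside 738 of 12597 genes called higher. Without forskolin C 2 were called, beside 485 of 12872 genes. Ddit3, Trib3 and Atf5 also stand in other lists.

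The adipogenic and gluconeogenic targets, which C/EBPs serve in fat and in hepatocytes, were mostly not expressed at a level that could be tested. Of 12 adipogenic targets 2 were tested and edgeR called 0, beside 2.8% of all tested genes. DESeq2 also called 0, beside 553 of 12233 genes. The 2 were Lpl at 62.5 ± 23.6 and 77.7 ± 13.2 CPM and Scd1 at 17.4 ± 3.71 and 13.1 ± 5.35 CPM. Their unadjusted p-values were 0.273 and 0.309 (edgeR). Pparg, which Cebpb and Cebpd induce in fat cell precursors, was at 1.02 CPM in DMSO C and at 0 counts in the other 5 libraries. Of 5 gluconeogenic targets only the coactivator gene Ppargc1a was tested. It was at 0.583, 0.506 and 2.03 CPM with DMSO and 9.90, 5.30 and 4.66 CPM with forskolin (2.88 ± 0.75, edgeR adjusted p = 0.0918), and it passed without DMSO C (3.60, edgeR adjusted p = 0.0346) and without both C libraries (3.77, edgeR adjusted p = 4.86e-04). It also passed with DESeq2 (adjusted p = 0.00425), the likelihood ratio test (0.00152), no filter (0.0151) and sample quality weights (0.0232), but not with limma-voom. The DMSO values of Ppargc1a lay near the floor of 3 counts, and it passed the filter on low counts through the forskolin libraries. Its fitted fold change is thus imprecise, and these calls are a description only.

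**Figure D5:**
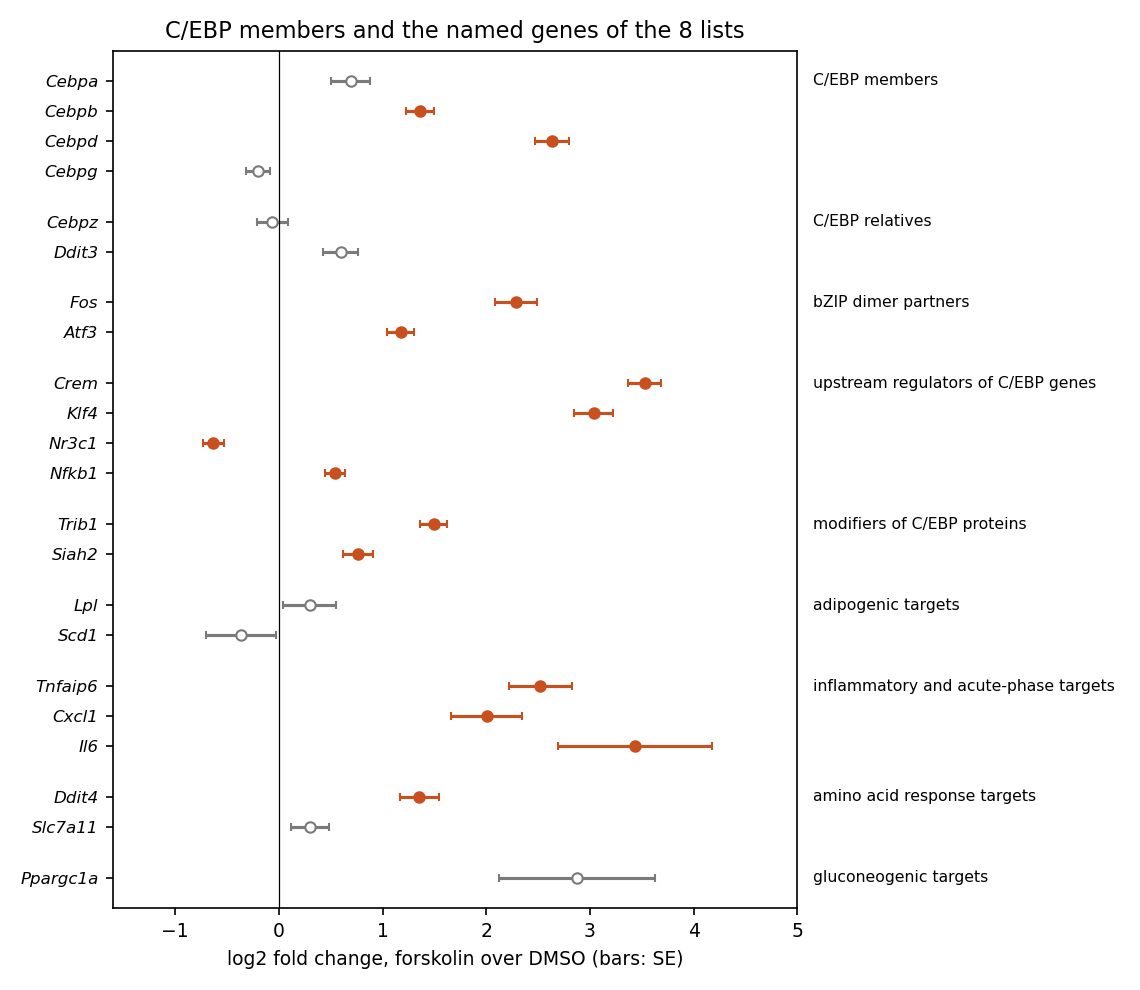
Log2 fold change of forskolin over DMSO, with SE as bars, for the 4 members and for the named genes of the 8 lists; filled points passed the test and open points did not. Crem at 3.53, Klf4 at 3.04 and Cebpd at 2.64 lie far to the right, and Nr3c1 at -0.63 is the only filled point left of 0.

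Summed markers of the other cell types that a stellate cell preparation can hold reached at most 43.3 CPM, for cholangiocytes in forskolin A. Summed neutrophil markers reached at most 3.05 CPM and adipocyte markers 2.23 CPM, and S100a9, Retnlg and Elane were at 0 counts in every library. Endothelial markers summed to 5.40 to 13.9 CPM with DMSO and 8.65 to 15.5 CPM with forskolin, and lymphocyte markers to 1.17 to 8.47 and 3.13 to 5.83 CPM. Cholangiocyte markers summed to 12.2 to 19.5 CPM with DMSO and to 43.3, 32.4 and 9.33 CPM in forskolin A, B and C. Of these, Krt7 was at 0 counts throughout. Spp1 was at 15.8, 10.7 and 2.03 CPM in DMSO A, B and C and at 34.1, 26.6 and 7 CPM in forskolin A, B and C. The part of these cell types in the C/EBP values was not tested.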

How the data were processed

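The authors deposited 1 table of expected counts per gene over exons, not adjusted for depth per the file headers, with RefSeq transcripts, mm10 positions and lengths. STAR, HOMER and mm10 are named per the submitters' processing notes, with no versions or settings; the counting rule is not given in the sources used here. Deposited values come in steps of 0.5 and were rounded to whole numbers (ties to even) before testing. 0 library columns lacked a sample.

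The main test was edgeR's quasi-likelihood F test (edgeR 4.0.16 in R 4.3.3, robust fit) after filterByExpr and TMM scaling. Benjamini-Hochberg adjustment ran over the 12233 genes tested, with calls at 0.05. SEs are the absolute log2 fold change over the square root of F, and so approximate. Ratios between members used a prior count of 0.5. The floor is 3 counts per library; it covers counting error only. The test was checked on simulated counts.

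The members and all lists were chosen with earlier results of these data known. Named genes are the 4 members, up to 4 called genes per list by p (or the most abundant, to make 2), the nearest genes within 100 kb, and the 3 most similar genes per member, predicted genes left out. Creb1, Stat3, Atf4, Jun, Trib2, Trib3, Gsk3a, Gsk3b, Cxcl2, Pparg, Saa2 and Lcn2 are further list genes, named after their values were seen. The same holds for Klf5, Ptgs2, Ccl2 and C3. For 1 list gene no value is reported here. Alternatives were other scaling factors and filters, DESeq2 1.42.0, limma 3.58.1 (voom, with quality weights or cyclic loess), the likelihood ratio test, a replicate block and left-out libraries.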

Additional observations from a re-analysis of the deposited data

How the results depend on the processing

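Against 342 genes called, the count was 620 with no filter, 553 with DESeq2, 984 with limma-voom and sample quality weights, 526 with cyclic loess, 648 with the edgeR likelihood ratio test, 649 with the replicate block and 1229 without both C libraries. Leaving out 1 library gave 185 to 485. Cebpa, at 0.69 on the log2 scale, passed the threshold with no filter (0.70), DESeq2 (0.69), limma-voom (0.75), quality weights (0.79), cyclic loess (0.74), the likelihood ratio test (0.69), the replicate block (0.72) and without both C libraries (0.81), and lay between 0.53 and 0.89 with 1 library left out. Its adjusted p ran from 2.12e-04 to 0.36 over these alternatives. Cebpb, Cebpd and Cebpg kept their side of the threshold in all 19 alternatives. The same-letter libraries deviated together at correlations of 0.0547 (A), 0.138 (B) and 0.161 (C). DMSO B and DMSO C each correlated best with their own letter, against at most 0.105 and -0.108 with the others. DMSO A correlated better with forskolin B (0.0874). These values do not settle whether the letters pair the samples, so the letters were not taken to do so and the block is an alternative only. With 1 library left out, 3 genes that were not called changed sign: Cebpz ran from -0.26 to 0.046, Spidr from -0.022 to 0.48 and A530013C23Rik from -0.43 to 0.074. Il6 missed the threshold in 7 of 18 alternatives, Siah2 in 5 of 19, Nfkb1 in 4 of 19, and Cxcl1 and Nr3c1 in 2 of 19 each. The causes were not tested. Depth limits values below about 1.17 CPM in forskolin C, where 3 counts reach that level.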
